A study of Homo sapiens with 16 samples.

Results

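The p53 target genes were followed in G401 cells after deletion of BRD9. They were chosen by a list of 39 symbols of genes known as direct targets of the transcription factor p53. The list was chosen with earlier results of these data known. Of these, 38 were found among the 57820 genes listed, 37 by symbol and TIGAR by its gene identifier under an older symbol, and APAF1L was not found. G401, a human line derived from a renal rhabdoid tumor, carried either a CRISPR-Cas9 deletion of BRD9 (BRD9 KO) or a guide against the E. coli gene LacZ, which is absent from the human genome. RNA from 16 libraries was read on days 1, 2, 3 and 5, with 2 libraries for each guide and day. The methods name no single clone, and the day from which days are counted is not given in the sources used here. The LacZ guide has no site to cut, so Cas9 cutting as such and loss of BRD9 cannot be told apart in any comparison below. In bulk RNA, fewer cells of one state and less RNA per cell cannot be told apart either.

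p53 is a transcription factor that DNA damage and other stresses stabilize. It binds pairs of short half-sites in DNA and raises genes that halt the cell cycle, repair DNA, limit oxidative damage or kill the cell, and it raises MDM2, the ubiquitin ligase that degrades p53, so that the response limits itself. A cut by Cas9 is a double-strand break and can start this response in cells with working p53. BRD9 is a bromodomain protein of a SWI/SNF chromatin remodeling complex, and rhabdoid tumors lack SMARCB1, a subunit of other forms of that complex.

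The half-site is 10 bases long and reads purines, C, a pair of A or T bases, G and pyrimidines, which is the same on both strands. It was searched in the 250 bases before each transcription start in RefSeq (GRCh38.p14), as a pair with at most 1 mismatch in each half-site and a gap of at most 13 bases. Of the 38 genes found, 30 had a promoter entry and 4 held such a pair (13.3%), against 1489 of 27305 genes with an entry (5.45%). The 4 were MDM2, CCNG1, FAS and SESN1. MDM2 alone among them passed the test in days 1 and 2 or in days 3 and 5, and its pair lies 94 to 75 bases before an internal start, with no gap. It is shown because MDM2 is the feedback gene of the pathway. The stretch is on the plus strand at chr12:68808918-68808947, with the half-sites in capitals.
MDM2: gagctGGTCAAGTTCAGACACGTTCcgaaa
A match describes the letters in this window, and its absence from another promoter says nothing about binding there.

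The libraries held 9185866 to 16560749 expected counts in BRD9 KO and 11252871 to 15430142 in LacZ. BRD9 itself was at 16.6 to 25.9 CPM (read counts scaled to library size after TMM normalization) in BRD9 KO and 45.8 to 64.5 CPM in LacZ, with no overlap on any day. Its log2 fold change was -1.43 ± 0.05 (SE) over days 1 and 2 and -1.34 ± 0.05 over days 3 and 5. SMARCB1 was at 0 to 0.131 CPM. KRT8, a keratin, was at 2920.2 to 5449.5 CPM in BRD9 KO and 2925.6 to 4283.5 CPM in LacZ. On day 5 it was at 5340.8 and 5272.1 CPM in BRD9 KO against 3656.0 and 3686.1 in LacZ. Blood, endothelial and kidney markers were near 0, except CD68 at 62.3 to 135 CPM, and their part in the results was not tested.

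G401 cells with the LacZ guide expressed most of the p53 targets. On the TPM scale (the authors' values per transcript length), the highest in LacZ cells was RPS27L, with a median of 309 TPM over 8 libraries (259 to 343). PERP followed at 261 TPM (247 to 275), PHLDA3 at 252 TPM (208 to 289) and CCNG1 at 239 TPM (226 to 247). The ranges of PERP, PHLDA3 and CCNG1 overlap each other and that of RPS27L overlaps those of PERP and PHLDA3, so the order is not settled by the spread between libraries. CDKN1A, which encodes the cyclin-dependent kinase inhibitor p21, was at 142 TPM and MDM2 at 78.1 TPM. At the low end TRIM22 had 2.59 TPM. FAS, a death receptor, had 16 counts in all 16 libraries together, PMAIP1 had 1 and SPATA18 had 0, so these 3 were too low to test. The other 35 were tested with 15027 genes in all.

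**Figure D1:**
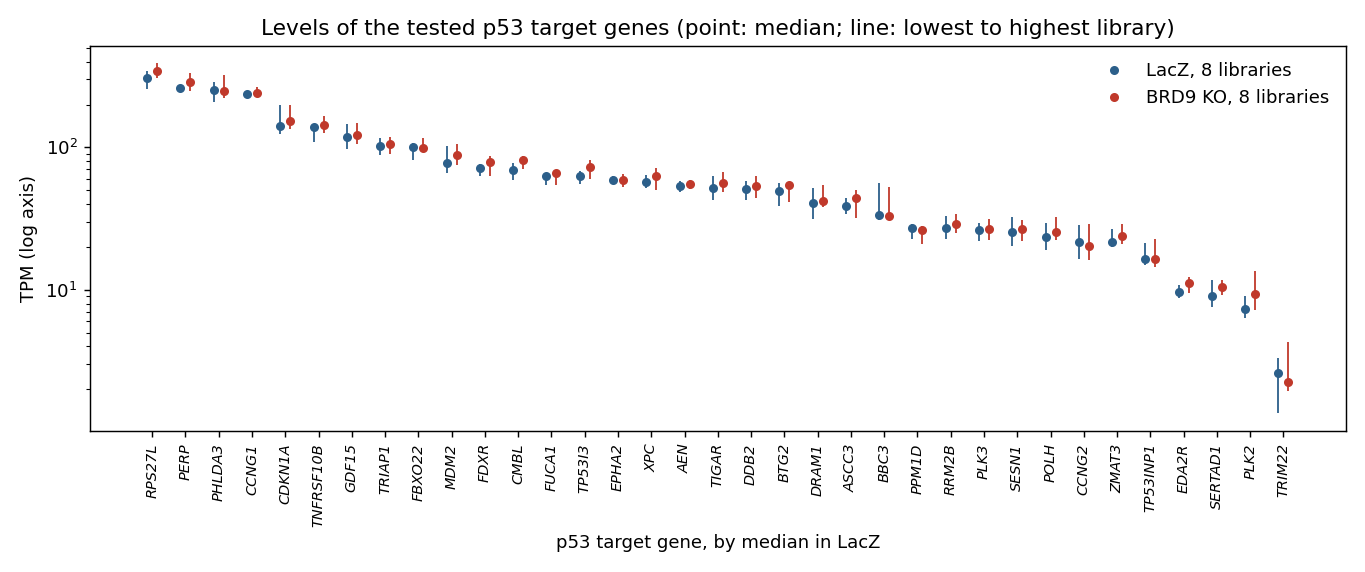
Level of each of the 35 tested p53 target genes in TPM (vertical log axis), ordered by the median in LacZ; points are medians over 8 libraries of each guide (all 4 days) and lines run from the lowest to the highest library. RPS27L is highest at 309 TPM in LacZ and TRIM22 lowest at 2.59 TPM, and the lines of the 2 guides overlap for most genes with the 4 days pooled.

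The p53 targets that passed the test on a single day were all higher in BRD9 KO, from day 1 on. A gene was called where edgeR's quasi-likelihood test gave an adjusted p under 0.05 over all 15027 genes. Called higher in BRD9 KO were 4 of 35 on day 1 (11.4%), where 0.273% of all genes tested were called higher. On day 2 there were 6 (17.1%), against 1.12% of all genes. On day 3 there were 7 (20%) against 4.59%, and on day 5 there were 9 (25.7%) against 7.53%. The share among the targets stood above that among all genes on each day. No target was called lower by edgeR on any day with the low-count filter, and without it EPHA2 (-0.16, adjusted p = 0.0255) and PHLDA3 (-0.13, adjusted p = 0.04) were called lower on day 1. Of all genes, 0.266%, 1.58%, 5.85% and 7.45% were called lower on days 1, 2, 3 and 5. At an unadjusted p under 0.05 the lower targets were 2, 0, 0 and 1, and DESeq2 and limma called 0 lower on each day. DESeq2 gave no adjusted p to 23, 6, 2 and 2 members on these days, so those could not be called by it.

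Most calls of the first days were lost when a library was left out, which leaves 1 library in an arm. On day 1 the number called was 1 without BRD9 KO replicate 1 and 0 without any one of the other 3 libraries. The log2 fold changes on day 1 stayed at 0.19 to 0.22 for RPS27L, 0.23 to 0.28 for CMBL, 0.15 to 0.22 for MDM2 and 0.21 to 0.30 for DRAM1. On day 2 it was 1 without BRD9 KO replicate 1, 3 without BRD9 KO replicate 2, 2 without LacZ replicate 1 and 2 without LacZ replicate 2. On day 3 it was 4 without LacZ replicate 1 and 5 to 7 without another library, and on day 5 it was 7 or 8. Limma on log2 TPM called 0 targets on days 1 and 2.

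Days were also joined into an early period (days 1 and 2) and a late period (days 3 and 5). Early, 8 targets were called higher (22.9%) where 1.48% of all genes were. EPHA2, a receptor tyrosine kinase, was called lower where 1.83% of all genes were. Late, 12 were called higher (34.3%) where 10.6% of all genes were. With all libraries, no target was called lower late by edgeR (10.9% of all genes). At an unadjusted p under 0.05 there was 1 lower (PPM1D), and DESeq2 and limma called 0 lower. DESeq2 called 7 higher early and 8 late, and limma on log2 TPM called 3 and 10. Late, DESeq2 did not call TIGAR (adjusted p = 0.0913), RRM2B (adjusted p = 0.159), SERTAD1 (adjusted p = 0.169) or GDF15 (adjusted p = 0.178), which edgeR did. Early, it did not call TP53I3 (adjusted p = 0.146).

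**Figure D2:**
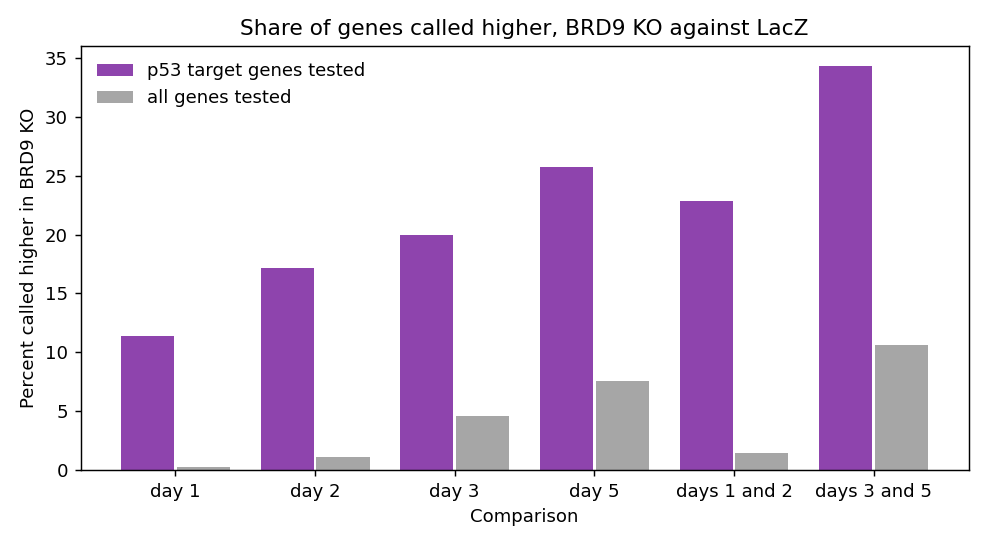
Percent of genes called higher in BRD9 KO than in LacZ (vertical axis) on each day and in the 2 joined periods; bars are the 35 p53 target genes tested and all 15027 genes tested. The share of targets is 11.4% on day 1 and 34.3% over days 3 and 5, and the share of all genes is 0.273% and 10.6%.

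The size of the shift was small. The median log2 fold change of the 35 targets was 0.08 on day 1, 0.07 on days 2 and 3 and 0.03 on day 5, where the median over all genes was close to 0. On these days 29, 29, 27 and 20 of the 35 were above 0, against 50.0%, 49.8%, 49.9% and 49.8% of all genes. The number called was higher on day 5 than on day 1, while the number above 0 was lower. In CPM, both BRD9 KO libraries lay above both LacZ libraries on all 4 days for 6 of 35 targets, where 2.3% of all genes did so. These were MDM2, RPS27L, TNFRSF10B, TP53I3, POLH and CMBL. No target lay below on all 4 days in CPM, where 2.81% of all genes did. In TPM the guides overlapped on day 1 for MDM2, TP53I3 and POLH and on day 2 for MDM2, and the share of all genes was not counted in TPM.

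**Figure D3:**
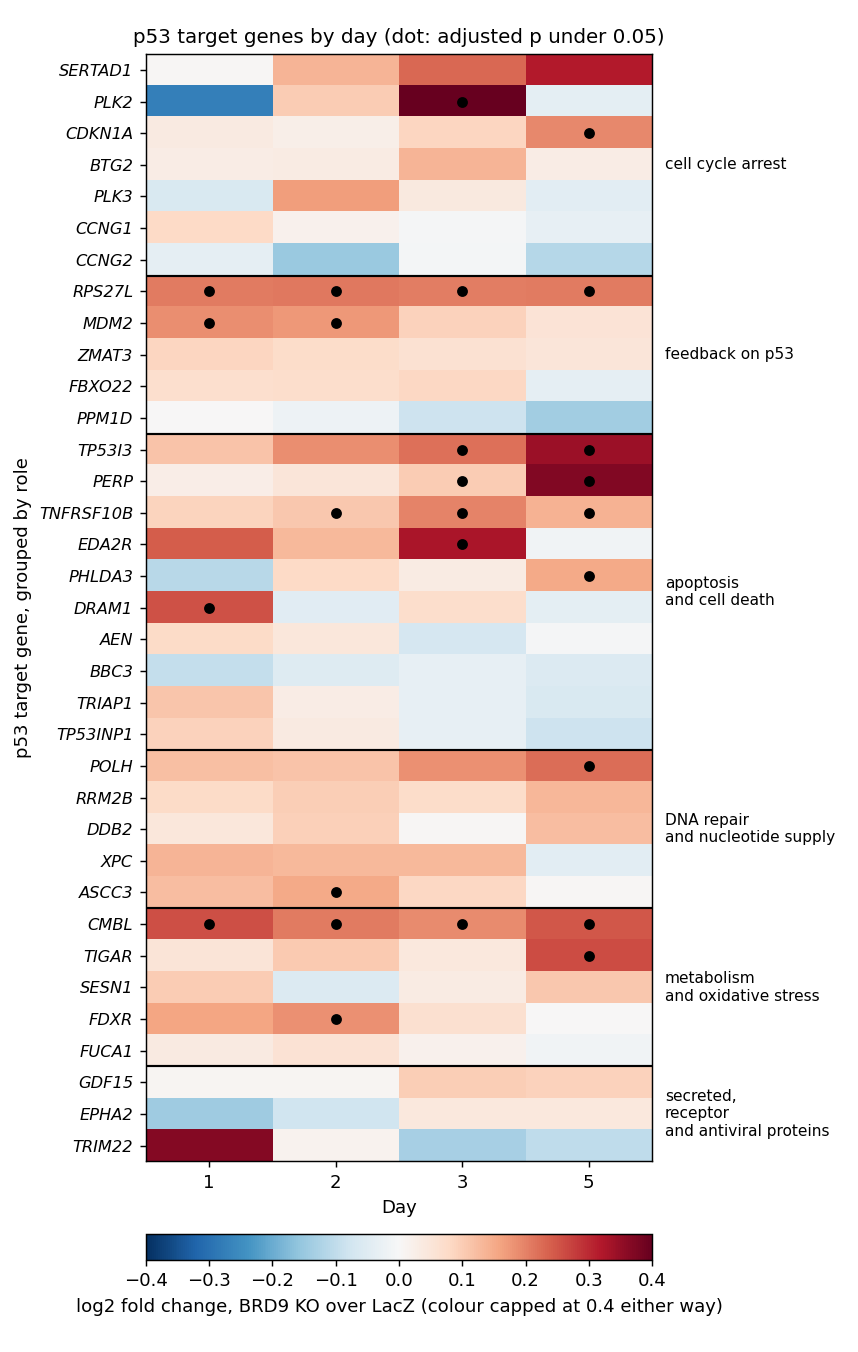
Log2 fold change of BRD9 KO over LacZ for each of the 35 tested p53 target genes (rows, grouped by role) on days 1, 2, 3 and 5 (columns); colour gives the value, capped at 0.4 either way, and a dot marks an adjusted p under 0.05 by edgeR's quasi-likelihood test. RPS27L and CMBL carry a dot on all 4 days, 15 genes carry a dot on at least 1 day and 20 carry none.

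Among 5 genes that feed back on p53, MDM2 and RPS27L were called higher early and RPS27L late, where 1.48% and 10.6% of all genes were. RPS27L (GRCh37 chr15:63418071-63450220, minus strand) encodes a ribosomal protein-like partner of MDM2. It was at 125 and 129 CPM in BRD9 KO against 111 and 110.2 in LacZ on day 1, 127 and 123 against 107 and 110.0 on day 2, 138 and 139 against 123 and 117 on day 3 and 109 and 113 against 94.7 and 97.9 on day 5. Both BRD9 KO libraries were above both LacZ libraries on every day. Its log2 fold change was 0.21 ± 0.03 early (15.7% higher, adjusted p = 0.000126) and 0.21 ± 0.03 late (15.3% higher, adjusted p = 2.12e-05), and both calls held without any one library. Reads in a stretch shared by a gene and an opposite-strand partner cannot be told apart without strand. The spans of 12 of the 38 members overlap such a protein-coding gene, and overlap of their exons was not measured. LACTB overlaps RPS27L and was itself higher late (0.37, adjusted p = 7.03e-06) and 0.14 early (adjusted p = 0.137). Its paralog RPS27 was not called (-0.01 early and -0.02 late).

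MDM2 (GRCh37 chr12:69201957-69239324, plus strand), whose half-site pair is printed above, was at 191 and 194 CPM in BRD9 KO against 166 and 173 in LacZ on day 1, 235 and 217 against 205 and 197 on day 2, 224 and 216 against 207 and 206 on day 3 and 185 and 185 against 177 and 179 on day 5. In CPM, BRD9 KO was above LacZ on each day, and the gap was larger on days 1 and 2 than on day 5. The log2 fold change was 0.18 ± 0.03 early (adjusted p = 0.000406), which held without any one library, and 0.07 ± 0.03 late (adjusted p = 0.0546). The late value passed the test without the low-count filter (0.08, adjusted p = 0.0329) and without BRD9 KO day 3 replicate 2 (0.09, adjusted p = 0.0488). Late minus early it was -0.11 ± 0.04 (adjusted p = 0.106), and -0.13 (adjusted p = 0.0234) without BRD9 KO day 2 replicate 2. This course depends on the unit: on log2 TPM, limma gave 0.03 early (adjusted p = 0.921), -0.06 on day 2 and 0.27 late (adjusted p = 0.0395). PPM1D, a phosphatase that quiets p53, was not called with all libraries, at -0.01 early and -0.11 late. Its late value was -0.16 without BRD9 KO day 3 replicate 1. FBXO22 and ZMAT3 were not called either, at 0.07 and 0.08 early and 0.02 and 0.05 late.

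**Figure D4:**
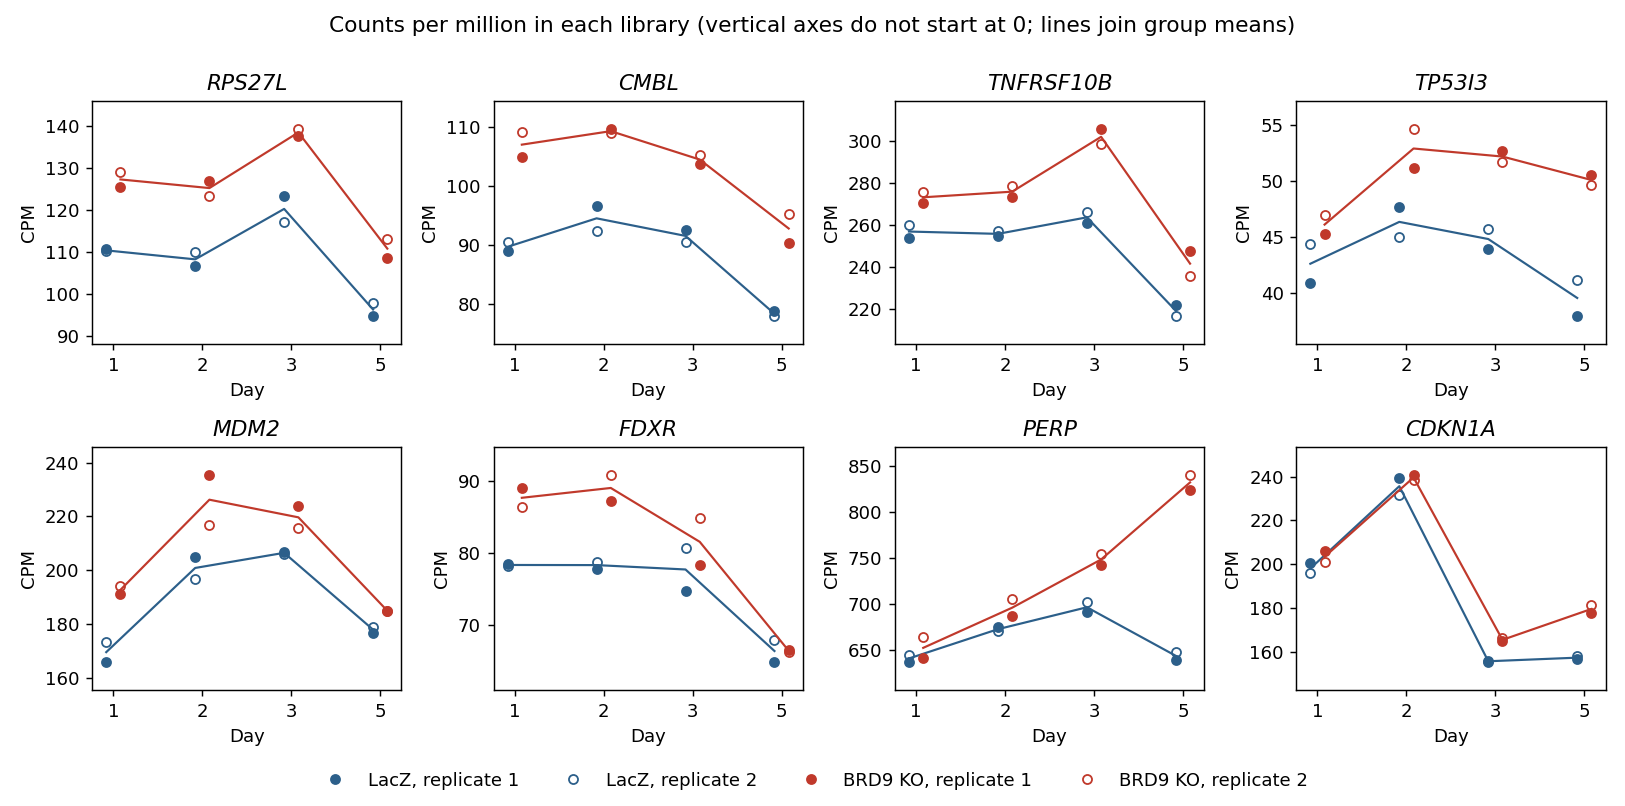
CPM (vertical axes, not starting at 0) of 8 p53 target genes in each library on days 1, 2, 3 and 5; points are single libraries, filled for replicate 1 and open for replicate 2, and lines join group means. RPS27L, CMBL, TNFRSF10B and TP53I3 stay apart on all days, as does MDM2, FDXR overlaps on days 3 and 5, and PERP on day 5 is at 824 and 840.3 CPM in BRD9 KO against 639.6 and 648 CPM in LacZ.

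Among the genes of apoptosis and cell death, 4 of 10 tested were called higher late and 2 early, against 10.6% and 1.48% of all genes. PERP (GRCh37 chr6:138409642-138428556, minus strand), a membrane protein of apoptosis and of desmosomes, had the smallest late p of the members. It was at 641 and 664 CPM in BRD9 KO against 637 and 645 in LacZ on day 1, 687 and 705 against 675 and 671 on day 2, 742 and 755 against 691 and 702 on day 3 and 824 and 840.3 against 639.6 and 648 on day 5. The guides overlapped on day 1 and stood furthest apart on day 5, when its log2 fold change was 0.37 ± 0.02 (adjusted p = 1.72e-10). It was 0.04 ± 0.01 early (adjusted p = 0.182) and 0.24 ± 0.01 late (adjusted p = 3.89e-10). The rise from early to late was 0.20 ± 0.02 (adjusted p = 2.24e-06) and held without any one library and by DESeq2 and limma.

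TNFRSF10B, the death receptor DR5, was at 271 and 276 CPM in BRD9 KO against 254 and 260.0 in LacZ on day 1, 273 and 278 against 255 and 257 on day 2, 306 and 298 against 261 and 266 on day 3 and 248 and 236 against 222 and 216 on day 5. BRD9 KO was above LacZ on every day. The log2 fold change was 0.10 ± 0.02 early (adjusted p = 0.00787) and 0.17 ± 0.02 late (adjusted p = 5.98e-06), and the early call missed the threshold without replicate 2 of BRD9 KO on day 1 (adjusted p = 0.0506). RHOBTB2 overlaps it on the opposite strand and was called late too (0.26, adjusted p = 0.000239).

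TP53I3 (GRCh37 chr2:24300303-24308731, minus strand), a quinone oxidoreductase, was at 45.2 and 46.9 CPM in BRD9 KO against 40.8 and 44.3 in LacZ on day 1, 51.1 and 54.6 against 47.6 and 45.00 on day 2, 52.6 and 51.7 against 43.9 and 45.7 on day 3 and 50.5 and 49.6 against 37.9 and 41.2 on day 5. In CPM, BRD9 KO was again above LacZ on all days, with the widest gap on day 5. In TPM, TP53I3 overlapped between the guides on day 1 (60.22 and 66.05 in BRD9 KO against 62.97 and 63.57 in LacZ). Early it was 0.15 ± 0.04 (adjusted p = 0.0481), a call that was kept only without LacZ day 1 replicate 2 when single libraries were left out (adjusted p 0.0371 to 0.209). Late it was 0.28 ± 0.04 (21.6% higher, adjusted p = 3.57e-05) and held without any one library.

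PHLDA3, an inhibitor of AKT signalling, lay below LacZ on day 1 and above it on days 2, 3 and 5. It was at 205 and 209.7 CPM in BRD9 KO against 226 and 222 in LacZ on day 1, 183 and 188 against 171 and 179.7 on day 2, 209 and 205 against 204 and 200.4 on day 3 and 265 and 257 against 238 and 231 on day 5. The log2 fold change on day 1 was -0.11 ± 0.03 and was not called with the low-count filter (adjusted p = 0.156). Early it was -0.015 ± 0.02 (adjusted p = 0.831). The late log2 fold change was 0.09 ± 0.02 (adjusted p = 0.00453), and late minus early was 0.11 ± 0.03 (adjusted p = 0.0447). The latter call was lost without any one of 13 of the 16 libraries (adjusted p 0.0277 to 0.128 over the 16).

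DRAM1, a lysosomal protein of autophagy, and EDA2R, a receptor of the TNF receptor family, were called on 1 day each. DRAM1 was at 77.8 and 78.2 CPM in BRD9 KO against 63.4 and 67.3 in LacZ on day 1, 73.2 and 69.7 against 74.6 and 72.96 on day 2, 97.6 and 107 against 98.2 and 95.6 on day 3 and 78.3 and 74.2 against 78.6 and 77.6 on day 5. It was called higher on day 1 by edgeR (0.25 ± 0.05, adjusted p = 0.0287), and the call was lost without any one of the 4 libraries of that day (adjusted p 0.0885 to 0.271). EDA2R was at 22.2 and 21.6 CPM in BRD9 KO against 18.3 and 18.6 in LacZ on day 1, 19.5 and 18.3 against 17.2 and 17.6 on day 2, 22.2 and 21.5 against 16.2 and 18.7 on day 3 and 16.8 and 18.1 against 16.7 and 18.9 on day 5. Its call on day 3 (0.33 ± 0.08, adjusted p = 0.0153) was lost without BRD9 KO replicate 1 (adjusted p = 0.134) and without LacZ replicate 1 (adjusted p = 0.22). BBC3, which encodes the BH3-only protein PUMA, was not called, at -0.07 ± 0.04 early and -0.04 ± 0.04 late. AEN, TRIAP1 and TP53INP1 were not called, at 0.06 to 0.07 early and -0.06 to -0.04 late.

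Of 7 genes grouped under cell cycle arrest, CDKN1A and SERTAD1 were called higher late, where 10.6% of all genes were. The grouping was chosen, and whether each member halts the cycle was not tested, so the SERTAD1 call is not read as arrest. CDKN1A (GRCh37 chr6:36644237-36655114, plus strand) was at 206 and 201 CPM in BRD9 KO against 200.3 and 196 in LacZ on day 1, 241 and 238 against 239 and 232 on day 2, 165 and 166 against 156 and 155 on day 3 and 178 and 181 against 157 and 158 on day 5. The guides lay close together on days 1 and 2 and were apart on day 5. Its log2 fold change was 0.03 ± 0.02 early (adjusted p = 0.535) and 0.14 ± 0.02 late (10.2% higher, adjusted p = 7.66e-05), and the late call held without any one library. Late minus early was 0.11 ± 0.03 (adjusted p = 0.0282), a call lost without any one of 11 of the 16 libraries (adjusted p 0.0249 to 0.0884 over the 16).

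PLK2, a polo-like kinase, was at 7.85 and 8.79 CPM in BRD9 KO against 10.01 and 10.3 in LacZ on day 1, 11.1 and 12.6 against 12.1 and 9.80 on day 2, 13.2 and 15.3 against 10.1 and 11.01 on day 3 and 10.2 and 11.5 against 11.01 and 11.5 on day 5. It was called on day 3 (0.42 ± 0.12, adjusted p = 0.0301) at a low level, and the call was lost without BRD9 KO replicate 2, LacZ replicate 1 or LacZ replicate 2 (adjusted p = 0.205, 0.188 and 0.0757). SERTAD1, a cyclin-dependent kinase regulator, was 0.27 ± 0.10 late (adjusted p = 0.0483), and that call was kept only without replicate 2 of either guide on day 5 (adjusted p 0.0304 to 0.218 over 8 libraries left out). BTG2, an antiproliferative transcriptional cofactor, CCNG1 and CCNG2, the cyclins G, and PLK3 were not called, at -0.09 to 0.05 early and -0.06 to 0.08 late.

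Of the 5 genes of DNA repair and nucleotide supply, 2 were called higher early and 2 late, beside 1.48% and 10.6% of all genes. ASCC3, a helicase of alkylation repair, was at 178 and 177 CPM in BRD9 KO against 165 and 161 in LacZ on day 1, 202 and 208 against 183 and 186 on day 2, 176 and 180.4 against 167 and 169.7 on day 3 and 146 and 151 against 147 and 149 on day 5. BRD9 KO was above LacZ on days 1, 2 and 3 and overlapped it on day 5. The early value was 0.14 ± 0.02 (adjusted p = 0.000818), which held without any one library, and the late value was 0.04 ± 0.02 (adjusted p = 0.182). XPC, the damage sensor of nucleotide excision repair, was 0.13 ± 0.03 early (adjusted p = 0.0176), a call kept only without LacZ day 1 replicate 1 when single libraries were left out (adjusted p 0.00662 to 0.0991), and 0.04 ± 0.03 late.

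POLH, the translesion polymerase eta, was at 49.6 and 45.5 CPM in BRD9 KO against 42.9 and 43.8 in LacZ on day 1, 56.3 and 60.2 against 52.5 and 54.8 on day 2, 54.2 and 48.4 against 43.6 and 47.4 on day 3 and 43.1 and 44.9 against 38.2 and 37.4 on day 5. In CPM it was above LacZ on all 4 days. In TPM, POLH overlapped between the guides on day 1 (25.1 and 22.9 in BRD9 KO against 24.41 and 22.15 in LacZ). It was 0.12 ± 0.04 early (adjusted p = 0.18) and 0.20 ± 0.05 late (adjusted p = 0.00292), and the late call held without any one library. GTPBP2, which overlaps it on the opposite strand, was 0.11 late (adjusted p = 0.0429). RRM2B, a ribonucleotide reductase subunit, was 0.09 ± 0.03 early and 0.10 ± 0.04 late (adjusted p = 0.0443). Its late call was lost on leaving out replicate 2 of BRD9 KO on day 3 (adjusted p = 0.139) or day 5 (adjusted p = 0.268), or replicate 1 of LacZ on day 3 (adjusted p = 0.153) or day 5 (adjusted p = 0.203). DDB2, another damage sensor, was 0.07 ± 0.04 early and 0.06 ± 0.04 late, and was not called.

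In metabolism and oxidative stress, CMBL (GRCh37 chr5:10275987-10308014, minus strand), a hydrolase, was at 105 and 109 CPM in BRD9 KO against 88.97 and 90.5 in LacZ on day 1, 109.7 and 109 against 96.7 and 92.5 on day 2, 104 and 105 against 92.7 and 90.5 on day 3 and 90.4 and 95.3 against 78.8 and 77.9 on day 5. All 4 days were apart. Its log2 fold change was 0.23 ± 0.03 early (17.6% higher, adjusted p = 4.42e-05) and 0.22 ± 0.03 late (16.4% higher, adjusted p = 1.33e-05), both without loss when a library was left out. Late minus early was -0.01 ± 0.04 (adjusted p = 0.906).

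FDXR, the ferredoxin reductase of mitochondria, was at 88.96 and 86.4 CPM in BRD9 KO against 78.6 and 78.2 in LacZ on day 1, 87.2 and 90.9 against 77.9 and 78.8 on day 2, 78.3 and 84.8 against 74.7 and 80.8 on day 3 and 66.7 and 66.3 against 64.97 and 67.97 on day 5. It was above LacZ on days 1 and 2 and overlapped it on days 3 and 5. Early it was 0.17 ± 0.03 (adjusted p = 0.00538), which held without any one library, and late it was 0.03 ± 0.03 (adjusted p = 0.569). Late minus early was -0.14 ± 0.05 (adjusted p = 0.097), and -0.16 (adjusted p = 0.0426) without BRD9 KO day 3 replicate 2.

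TIGAR, a bisphosphatase that restrains glycolysis, was at 41.00 and 38.5 CPM in BRD9 KO against 37.8 and 38.4 in LacZ on day 1, 49.5 and 51.8 against 48.1 and 45.9 on day 2, 44.3 and 44.02 against 44.03 and 41.9 on day 3 and 41.7 and 38.6 against 33.04 and 33.6 on day 5. The gap was widest on day 5 (0.26 ± 0.06, adjusted p = 0.00425). Over the late days it was 0.15 ± 0.04 (adjusted p = 0.00968), lost without replicate 2 of LacZ on day 3 (adjusted p = 0.0529) or replicate 1 of BRD9 KO on day 5 (adjusted p = 0.0523). SESN1, a stress-induced inhibitor of TORC1, and FUCA1, a lysosomal fucosidase, were not called, at 0.02 and 0.05 early and 0.07 and 0.0029 late.

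Of the secreted, receptor and antiviral genes, GDF15, a stress cytokine, was 0.01 ± 0.03 early and 0.10 ± 0.03 late (adjusted p = 0.0433). This late call was lost without any one of 6 of 8 libraries (adjusted p 0.0232 to 0.227) and kept without replicate 2 of LacZ on day 3 or day 5. EPHA2 was at 128 and 125 CPM in BRD9 KO against 139 and 139.7 in LacZ on day 1, 121 and 125 against 128 and 133 on day 2, 148 and 139.6 against 136 and 144 on day 3 and 132 and 136 against 127 and 135 on day 5. It stood below LacZ on days 1 and 2 and overlapped it afterwards. It was -0.11 ± 0.03 early (adjusted p = 0.0466), a call lost without any one of 8 libraries (adjusted p 0.0504 to 0.171), and 0.04 ± 0.03 late. Late minus early was 0.15 ± 0.04 (adjusted p = 0.0303), which was lost without any one of 8 of the 16 libraries (adjusted p 0.0193 to 0.0916 over the 16). TRIM22, an antiviral protein at 2.08 to 4.06 CPM, was not called.

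By period, the calls fell as follows. Called both early and late were 4 (CMBL, RPS27L, TNFRSF10B and TP53I3), and late minus early ranged from -0.01 to 0.13 in them with no call. Called early and not late with all libraries and the low-count filter were 5 (MDM2, FDXR, ASCC3, XPC and EPHA2), and called late and not early were 8 (CDKN1A, PERP, PHLDA3, POLH, RRM2B, SERTAD1, TIGAR and GDF15). In neither period were 18. This split was not counted over all genes. Of all genes, 1.48% were called higher and 1.83% lower early, and 10.6% and 10.9% late. A call in one period alone does not show a difference, so the change itself was tested. Late minus early, 4 were called higher (PERP, CDKN1A, PHLDA3 and EPHA2; 11.4%) where 3.41% of all genes were. With all libraries, none was called lower by edgeR, DESeq2 or limma, and 7 were lower at an unadjusted p under 0.05. Of all genes, edgeR called 4.03% lower. DESeq2 called 2 higher and limma called 1. MDM2, FDXR, ASCC3 and XPC had late minus early values of -0.11, -0.14, -0.09 and -0.09 with adjusted p = 0.106, 0.097, 0.0834 and 0.28. The median over the 35 was -0.01. By edgeR's F-test for any difference between days, 3 targets were called (PERP, PHLDA3 and DRAM1), with adjusted p = 3.63e-07, 0.00484 and 0.0342, where 5.53% of all genes were.

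**Figure D5:**
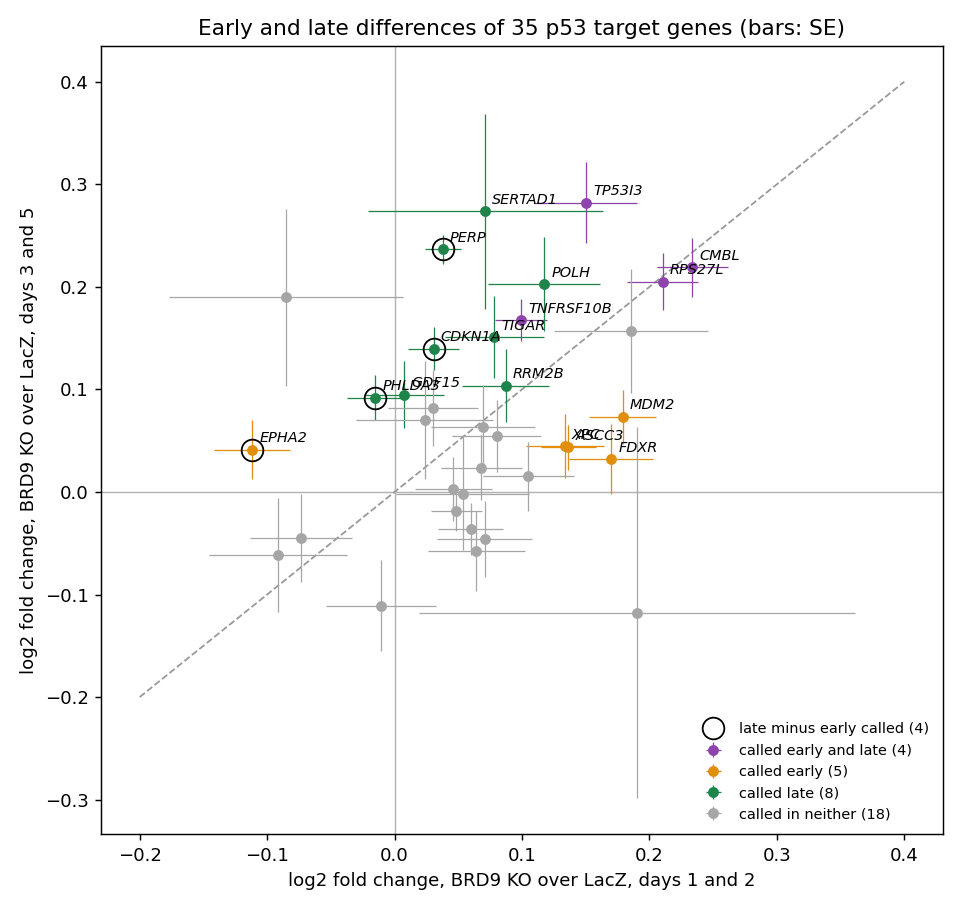
Log2 fold change of BRD9 KO over LacZ over days 1 and 2 (horizontal axis) and days 3 and 5 (vertical axis) for the 35 tested p53 target genes, with SE bars; colours mark the period in which a gene was called, open circles the 4 genes called in late minus early, and the dashed line equal values. PERP lies at 0.04 and 0.24, MDM2 at 0.18 and 0.07, and CMBL at 0.23 and 0.22.

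The LacZ cells changed over the same days, and for several targets by more than the difference between guides. From day 1 to day 5, 19 of 35 targets fell in LacZ (54.3%) where 12.9% of all genes fell, and 1 rose (DRAM1, 0.26 ± 0.05) where 12.7% rose. The median of the targets was -0.18. BBC3 fell the most, from 57.0 and 54.8 CPM to 33.3 and 33.5 CPM (-0.74 ± 0.05, adjusted p = 1.22e-08), and its libraries of day 1 and day 5 did not overlap. BTG2 fell by 0.45 ± 0.05 on the log2 scale, GDF15 fell by 0.38 ± 0.04 and CDKN1A fell by 0.33 ± 0.03. TIGAR and POLH fell by 0.20, and both calls were lost without any one of the 4 libraries (adjusted p 0.0545 to 0.132 for TIGAR and 0.0764 to 0.163 for POLH). DESeq2 called 15 lower and limma called 8. These LacZ libraries are also the controls of days 1 and 5, so the 2 sets of values are not independent.

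In a list of genes around p53 and MDM2, 19 were tested. Late, 1 was called higher in BRD9 KO than in LacZ (PPP1R13L, an inhibitor of p53, 0.32 ± 0.05), where 10.6% of all genes were. Called lower late were 3, where 10.9% of all genes were. These were TP73, a p53 relative, at -0.36, RPL5, a ribosomal protein that binds MDM2, at -0.09, and CREBBP, a coactivator, at -0.08. Early, edgeR called 1 lower (TP73, at -0.23) and DESeq2 and limma called 0, where edgeR called 1.83% of all genes lower. None was called higher early by edgeR, DESeq2 or limma, with 4 higher at an unadjusted p under 0.05. MDM4, the partner of MDM2, was -0.0011 early and -0.04 ± 0.06 late and was not called.

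Another 40 p53 targets, of which 37 were tested, differed between the guides in both directions. Early 3 were called higher in BRD9 KO and 1 lower, and late 8 higher and 8 lower, with medians of 0.02 and 0.01. Of all genes, 1.48% were called higher and 1.83% lower early, and 10.6% higher and 10.9% lower late. SFN, which encodes 14-3-3 sigma, was at 0.32 ± 0.03 late and IGFBP3, a binder of insulin-like growth factors, at 0.18 ± 0.02. DDIT4, an inhibitor of TORC1, was at -0.50 ± 0.03, TOB1, an antiproliferative protein, at -0.18 ± 0.03 and DGKA, a diacylglycerol kinase, at -0.37 ± 0.06. Above 0 were 22 of 37 early and 21 late, where the 35 targets had 29 and 26.

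Cell cycle genes that p21 is known to lower through the DREAM and RB complexes were lower in BRD9 KO than in LacZ late. Of 20 tested, edgeR and DESeq2 called 15 lower over days 3 and 5 and limma called 12. None was called higher by the 3 tools (0 higher at an unadjusted p under 0.05). By day, edgeR called 16 lower on day 3 and 12 on day 5, where 5.85% and 7.45% of all genes were. By edgeR CDKN1A was 0.09 on day 3 (adjusted p = 0.0747) and 0.19 on day 5 (adjusted p = 0.000154), and its relation to these genes was not tested. Early, none of the 20 was called in either direction by the 3 tools, with 2 higher and 3 lower at an unadjusted p under 0.05. TOP2A, a topoisomerase, was at -0.22 ± 0.02 late, CCNA2, cyclin A2, at -0.25 ± 0.03 and CENPF, a kinetochore protein, at -0.16 ± 0.02. Over the late days 10.9% of all genes were called lower. Late minus early, 11 of the 20 were called lower, where 4.03% of all genes were. In LacZ cells 18 of the 20 rose from day 1 to day 5, where 12.7% of all genes rose.

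Of 11 tested genes of the ATF4 and CHOP stress response, 1 was called higher late (CEBPB, a transcription factor, 0.31 ± 0.05) and 4 lower, among them NUPR1, a stress-induced nuclear protein, at -1.19 ± 0.04, PSAT1 at -0.21 ± 0.02 and PHGDH at -0.24 ± 0.03, both enzymes of serine synthesis. Of all genes, 10.6% were called higher and 10.9% lower late. NUPR1 was already at -0.23 ± 0.03 early (adjusted p = 0.000251). It was the only one of the 11 called early by edgeR, where 1.83% of all genes were called lower, and none was called higher by edgeR, DESeq2 or limma (0 at an unadjusted p under 0.05).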

How the data were processed

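RNA was measured in 16 libraries. The authors made libraries with a NEBNext Ultra kit, which does not keep the strand, and per the submitters' processing notes used STAR, RSEM, hg19 and DESeq2, with versions not given in the sources used here. The deposited expected counts are RSEM's estimates of reads per gene (35.7% of values above 0 were not whole), and they were rounded. The deposited TPM are the authors' RSEM values scaled by transcript length and library total. Genes were kept by filterByExpr (minimum count 10, minimum total 15), scaled by TMM, and the quasi-likelihood model of edgeR 4.0.16 (R 4.3.3) had 8 group means over 16 libraries, with 8 residual degrees of freedom. p-values were adjusted by Benjamini-Hochberg over 15027 genes, and 0.05 was the threshold. The log2 fold changes are given with standard errors. The median spread within a group of 2 was 1.05 to 1.15 times counting noise, so small differences can pass in abundant genes. The methods call the libraries biological replicates but not separate cultures, so p-values measure the spread between these samples. Same-numbered libraries of the 2 guides had residual correlations of -0.0435, -0.118, 0.101 and 0.177 on days 1, 2, 3 and 5 over 6273 abundant genes, and were not taken as pairs. Members, roles and lists were chosen with earlier results of these data known. All members are named, with values per library for those called on a day or in late minus early, and up to 3 called genes per direction with the smallest late p in other lists. Some genes of those lists are not reported here. Genes were matched to GRCh37 coordinates. Alternatives were other filters, DESeq2 size factors, DESeq2 1.42.0, limma 3.58.1 on log2(TPM + 1), a replicate block and each library left out.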

Additional observations from a re-analysis of the deposited data

Results flagged for a closer look

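Between the early days (1 and 2) and the late days (3 and 5), the gap between BRD9 KO and LacZ changed in 4 p53 targets. This was called by edgeR's quasi-likelihood test of the change itself, with adjustment over all genes. The late effect exceeded the early one on the log2 scale by 0.199 ± 0.0199 in PERP (adjusted p = 2.24e-06), by 0.109 ± 0.0292 in CDKN1A (adjusted p = 0.0282), by 0.1532 ± 0.0416 in EPHA2 (adjusted p = 0.0303) and by 0.1071 ± 0.0314 in PHLDA3 (adjusted p = 0.0447). PERP kept its call without any one library. CDKN1A lost it without any one of 11 of 16 libraries, EPHA2 of 8 and PHLDA3 of 13. In EPHA2 the early effect was below 0 and the late one near 0, while in the other 3 the late effect was above 0. DESeq2 did not call CDKN1A (adjusted p = 0.0914) or PHLDA3 (adjusted p = 0.0927). Limma on log2 TPM did not call CDKN1A (adjusted p = 0.0851), EPHA2 (adjusted p = 0.0794) or PHLDA3 (adjusted p = 0.112).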

How the results depend on the processing

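With single libraries left out, where the lone library of an arm is assumed to vary like the others, the number of members called was 0 to 1 on day 1, 1 to 3 on day 2, 4 to 7 on day 3, 5 to 7 over days 1 and 2 and 1 to 3 in late minus early, against 4, 6, 7, 9 and 4 with all libraries. DESeq2 called 4 on day 3 and 2 in late minus early. Limma on log2 TPM called 0 on day 1, 0 on day 2, 3 on day 3, 3 over days 1 and 2, 1 in late minus early and 9 from LacZ day 1 to day 5 (against 20), and it turned MDM2 on day 2 to -0.057 (adjusted p = 0.913). The cause was not tested. Counts on day 5 and over days 3 and 5 stayed within 1.5 times of 9 and 12 under each setting run.

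The values compared here are those of single members called in the main fit, without the counts above. Of 425 such values under other settings, 360 kept their direction and side of the threshold, 64 lost it and 1 reversed. Of 416 values with a library left out, 278 were kept and 138 lost. DESeq2 size factors and the stricter filter kept all 71 values. The replicate block within days kept 46 of 51 values, and POLH on day 5 (adjusted p = 0.0518), TP53I3 (0.0815) and EPHA2 (0.0629) early, and GDF15 (0.0599) and SERTAD1 (0.0817) late lost their calls. With that replicate block MDM2 was called late at 0.07 (adjusted p = 0.0266), and members called were 4, 6, 7 and 8 on days 1, 2, 3 and 5. Without a filter TNFRSF10B on day 2, TP53I3 early and RRM2B and GDF15 late lost their calls, and EPHA2 (-0.16) and PHLDA3 (-0.13) were called lower on day 1. DESeq2 gave no adjusted p to 23 members on day 1. FAS, PMAIP1 and SPATA18 had too few counts for a difference to be detectable.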
